A study of Mus musculus with 12 samples.

Results

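Chemokines and chemokine receptors were examined in the tibialis anterior, a muscle of the lower hindlimb. Members were all entries of the deposited count table whose gene symbol begins with Ccl, Ccr, Cxcl, Cxcr, Xcl or Xcr and a digit, or with Cx3c, and the rule used no measured value. It found 58 of 24421 entries: 24 CC ligands, 13 CXC ligands, 2 ligands of the XC and CX3C classes (Xcl1 and Cx3cl1) and 19 receptors. RNA was sequenced from 12 male mice aged 4 months, 6 of the strain C57Bl/6 (WT) and 6 mdx/mTR. The mdx allele abolishes dystrophin, the product of Dmd, and mTR names the mouse telomerase RNA gene. WT mice carry neither change, and with no group that carries only 1 of them, the effects of the mdx and mTR changes cannot be told apart. The labels do not state the breeding generation of the mdx/mTR mice or any litter or batch, and each library was taken as 1 mouse, so p-values measure the spread between these libraries.

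Chemokines are small secreted proteins that guide moving cells, chiefly leukocytes, along a gradient. Their receptors are G protein-coupled receptors that signal through Gi proteins to the cytoskeleton. Ligands are classed by the spacing of their first cysteines: adjacent in CC, parted by a single residue in CXC and by several in CX3C, while XC ligands lack the first of the pair. Some CXC ligands carry the residues Glu-Leu-Arg (ELR) just before the cysteines and act on neutrophils through CXCR2. In injured and dystrophic muscle, the ligands of CCR2 are known for recruiting blood monocytes, which become macrophages in the tissue.

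The coding sequence around the first cysteines is shown for a ligand of each class on which the results below turn, 5′ to 3′, with the cysteine codons in capitals and, where present, the ELR codons before them. The stretches come from GENCODE M21 transcripts on GRCm38, the assembly also called mm10. Ccl2 lies at chr11:82036488-82036535 on the plus strand and Cxcl12 at chr6:117171490-117171537 on the plus strand. Cxcl5 lies at chr5:90759709-90759756 on the plus strand and Cxcl10 at chr5:92348160-92348207 on the minus strand. Cx3cl1 lies at chr8:94778033-94778080 on the plus strand and Xcl1 at chr1:164932948-164932995 on the minus strand.
Ccl2: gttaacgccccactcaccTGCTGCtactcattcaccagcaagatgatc
Cxcl12: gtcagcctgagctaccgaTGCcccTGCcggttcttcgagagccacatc
Cxcl5: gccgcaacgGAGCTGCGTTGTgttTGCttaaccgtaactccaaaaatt
Cxcl10: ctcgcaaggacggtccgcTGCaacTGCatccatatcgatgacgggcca
Cx3cl1: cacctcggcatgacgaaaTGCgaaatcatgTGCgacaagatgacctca
Xcl1: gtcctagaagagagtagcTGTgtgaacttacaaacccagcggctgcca
The CC pair of Ccl2 is unbroken, 1 codon parts the cysteines of Cxcl12, Cxcl5 and Cxcl10, and 3 codons part those of Cx3cl1. Among the CXC ligands, the ELR codons precede the cysteines of Cxcl1, Cxcl2, Cxcl3, Cxcl5 and Cxcl15.

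Library totals ran from 35136327 to 60330410 counts, and levels are given as CPM, computed in edgeR after scaling by the trimmed mean of M-values (TMM), which divides counts by library size. A library without a read for a gene may still hold up to 3 counts of it, the floor used here, which was 0.046 to 0.0837 CPM. The Dmd message averaged 237 ± 6.9 CPM in WT against 46.8 ± 7.2 CPM in mdx/mTR (SD, n = 6 each). Summed markers of muscle fibres ranged from 124000 to 150000 CPM in WT against 95700 to 134000 CPM in mdx/mTR, so the labelled tissue was borne out in every library. With library totals alone in place of TMM, the median of all genes moved by 0.156 on the log2 scale, and the share of calls that were higher went from 51.6% to 78.2%. Log2 fold changes set mdx/mTR over WT and are relative to TMM. In bulk RNA, a change in the number of cells of a type cannot be told apart from a change in RNA per cell.

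Most members that passed the filter on low counts were higher in mdx/mTR. Of the 58 members, 32 passed, 22 were higher at an edgeR adjusted p below 0.05, 2 were lower (Cxcl12 and Ccl25) and 8 were not called. Over all 13937 genes tested, 25.0% were called higher and 23.4% lower. No overlap between the groups was seen for 12 higher members and 1 lower member, against 12.6% of all genes tested in each direction. At least a 2-fold rise was called for 19 members, against 7.24% of all genes. The median log2 fold change was 1.41 over the 32 members and 0.01 over all tested genes. These counts cover only members that passed the filter: for 11 of the 32 (Ccl2, Ccl7, Ccl12, Ccl8, Ccl5, Ccl22, Cxcr3, Cxcr5, Cxcr6, Ccr9 and Xcr1), all 6 mdx/mTR libraries but fewer than 6 WT libraries exceeded the filter value of 0.25 CPM. Cxcl10 and Ccr7, both called higher, also passed mainly through mdx/mTR libraries. Cxcl10 had 3 to 15 counts per WT library and 7 to 69 per mdx/mTR library, and Ccr7 had 0 to 11 and 8 to 50. With no filter, 26 of the 52 members with any count were higher and 3 lower, against 19.0% and 16.4% of 19290 genes.

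**Figure D1:**
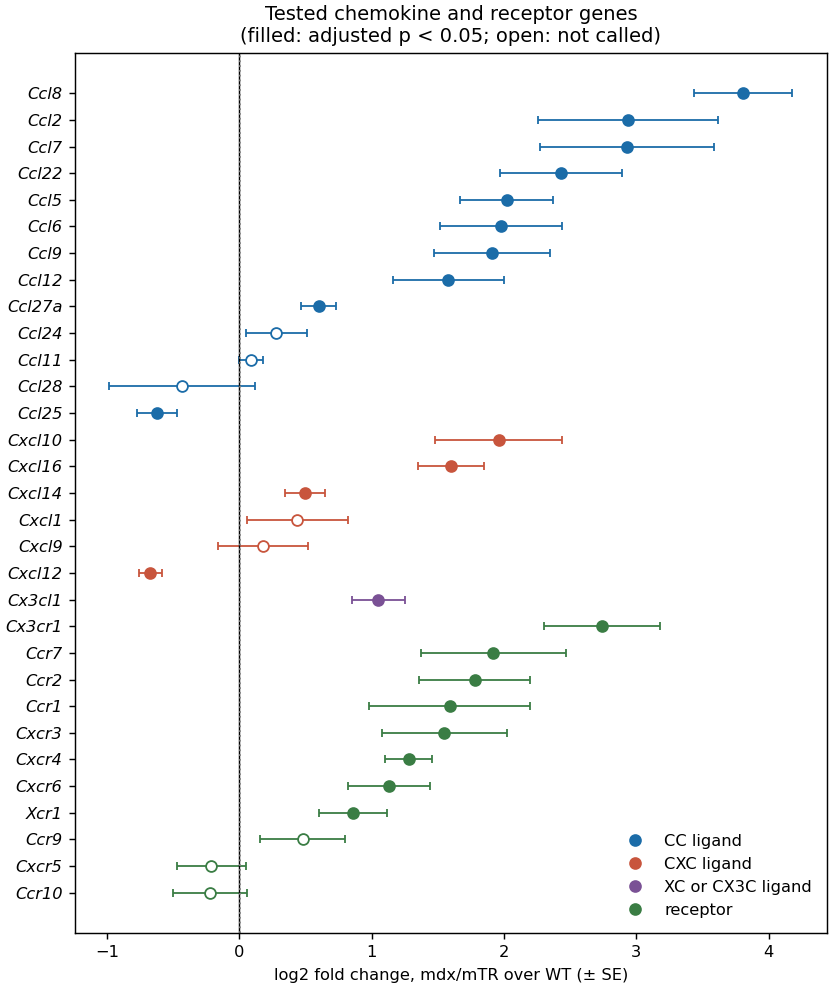
Log2 fold change between mdx/mTR and WT (x axis, ± SE) for 31 tested members, coloured by class, with filled points for an adjusted p below 0.05, open points for genes not called and a dotted line at the median of all tested genes. Ccl8 (3.81) lies farthest to the right, and Ccl25 (-0.62) and Cxcl12 (-0.67) are the filled points left of 0.

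The 4 CC ligands known for attracting monocytes, Ccl2, Ccl7, Ccl12 and Ccl8, all rose. Ccl8 had the largest change among the members that passed the filter: it lay between 0.133 and 0.739 CPM in WT (median 0.361) and between 2.63 and 8.73 CPM in mdx/mTR (median 5.03). Its groups did not overlap, and its log2 fold change was 3.81 ± 0.37 (SE; edgeR adjusted p 4.31e-06), which is 14.0-fold. The gene lies at chr11:82115185-82116799 on GRCm38.

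Ccl2, the ligand most often studied for CCR2, lay between 0.222 and 1.26 CPM in WT (median 0.488). In mdx/mTR it lay between 0.959 and 16.2 CPM (median 2.69). Its log2 fold change was 2.94 ± 0.68 (edgeR adjusted p 0.00286). The highest value belonged to mdx/mTR replicate 5, with 3.31 CPM in the next library, and 5 of the 6 mdx/mTR libraries exceeded every WT library. Without replicate 5 the mean of mdx/mTR fell from 4.57 to 2.23 CPM and the log2 fold change was 1.90 (edgeR adjusted p 0.00151).

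Ccl7, another CCR2 ligand, lay between 0.157 and 0.957 CPM in WT (median 0.325) and between 0.628 and 9.52 CPM in mdx/mTR (median 1.99). The groups overlapped, because WT replicate 6 at 0.957 CPM exceeded 2 mdx/mTR libraries. The log2 fold change was 2.93 ± 0.66 (edgeR adjusted p 0.00239), and 2.14 without mdx/mTR replicate 5 (edgeR adjusted p 0.00249). Ccl12, a rodent relative of Ccl2, averaged 0.222 ± 0.0687 CPM in WT against 0.665 ± 0.445 CPM in mdx/mTR (log2 fold change 1.58 ± 0.42, edgeR adjusted p 0.007).

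Ccl11, which attracts eosinophils through CCR3, stands between Ccl7 and Ccl12 on chromosome 11 and was not called. It averaged 18.6 ± 2.82 CPM in WT against 19.8 ± 1.8 CPM in mdx/mTR (log2 fold change 0.09 ± 0.09, edgeR adjusted p 0.458), and with library totals alone its log2 fold change was 0.241 (edgeR adjusted p 0.0497). The 4 ligands that rose and Ccl11 lie within 81.2 kb. Ccl24, which also binds CCR3, was not called either (0.28, edgeR adjusted p 0.345).

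**Figure D2:**
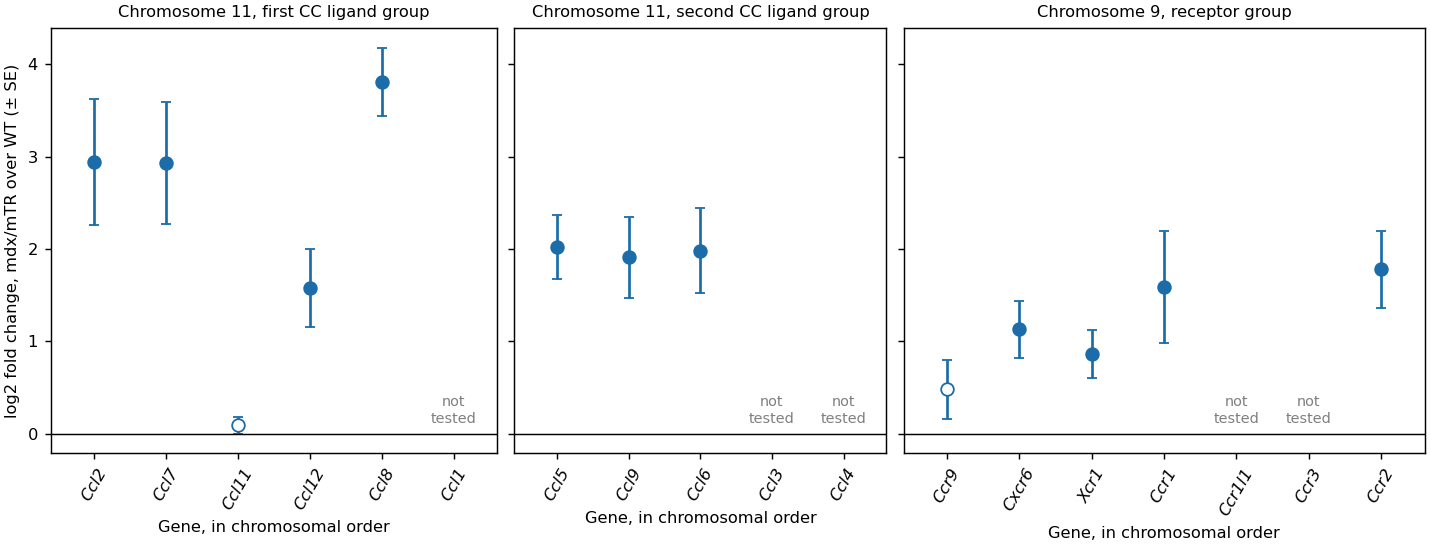
Log2 fold change between mdx/mTR and WT (y axis, ± SE) for neighbouring members in chromosomal order, not to scale, in 2 groups of CC ligands on chromosome 11 and the receptors on chromosome 9; open points were not called. Ccl11, at 0.09, lies between Ccl7 at 2.93 and Ccl12 at 1.58.

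The second group of CC ligands on chromosome 11 holds Ccl5, Ccl9, Ccl6, Ccl3 and Ccl4. Ccl6 and Ccl9 are rodent ligands of CCR1, and both rose. Ccl6 lay between 5.05 and 13.5 CPM in WT (median 7.83) and between 14.9 and 97.7 CPM in mdx/mTR (median 21.4). Every mdx/mTR library exceeded every WT library (log2 fold change 1.98 ± 0.46, edgeR adjusted p 0.00304). Ccl9 lay between 3.5 and 8.26 CPM in WT (median 4.9) and between 10.3 and 61.2 CPM in mdx/mTR (median 13.0). Its groups did not overlap either (1.91 ± 0.44, edgeR adjusted p 0.00288). Both owed their highest value to mdx/mTR replicate 5, and without it the log2 fold changes were 1.27 for Ccl6 (edgeR adjusted p 0.00106) and 1.18 for Ccl9 (edgeR adjusted p 0.000221).

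Ccl5, a chemokine made by T cells and macrophages, lay between 0.0278 and 0.287 CPM in WT (median 0.193) and between 0.429 and 0.998 CPM in mdx/mTR (median 0.745). It rose without overlap of the groups (2.02 ± 0.35, edgeR adjusted p 0.000382). Its highest mdx/mTR value was in replicate 2, not in replicate 5. Ccl3 and Ccl4, its inflammatory neighbours, did not pass the filter. Ccl3 had 0 to 6 counts per WT library and 5 to 56 counts per mdx/mTR library, and Ccl4 had 0 to 8 and 5 to 22 counts. With no filter both were called higher, Ccl3 with a log2 fold change of 2.64 (edgeR adjusted p 0.00345) and Ccl4 with 2.18 (edgeR adjusted p 0.0291).

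Ccl22, a ligand of CCR4 made by dendritic cells and macrophages, lay between 0.0279 and 0.301 CPM in WT (median 0.147) and between 0.492 and 2.0 CPM in mdx/mTR (median 0.713). It rose without overlap of the groups (2.43 ± 0.46, edgeR adjusted p 0.000706). Its neighbour Ccl17, which binds the same receptor, had 0 to 5 counts per WT library and 7 to 31 per mdx/mTR library, and was called higher only with no filter (1.56, edgeR adjusted p 0.0378). The receptor itself, Ccr4, had at most 4 counts in any library.

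Of the 13 tested CC ligands, 9 were higher and 1 lower, with a median of 1.91, against 25.0% and 23.4% of all genes tested. Ccl27a, a skin ligand of CCR10, was higher by a smaller step, from 1.16 ± 0.196 to 1.75 ± 0.124 CPM (0.60 ± 0.13, edgeR adjusted p 0.0021). Its level is uncertain, since 66.4% of its 50-base stretches occur in transcripts of other genes. Ccl28, which also binds CCR10, was not called (-0.43, edgeR adjusted p 0.542). Ccl25, a thymus and gut ligand of CCR9, lay between 1.48 and 2.49 CPM in WT (median 2.32) and between 1.0 and 1.62 CPM in mdx/mTR (median 1.54). It fell (-0.62 ± 0.15, edgeR adjusted p 0.0048), and WT replicate 2, at 1.48 CPM, was the WT library inside the mdx/mTR range.

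**Figure D3:**
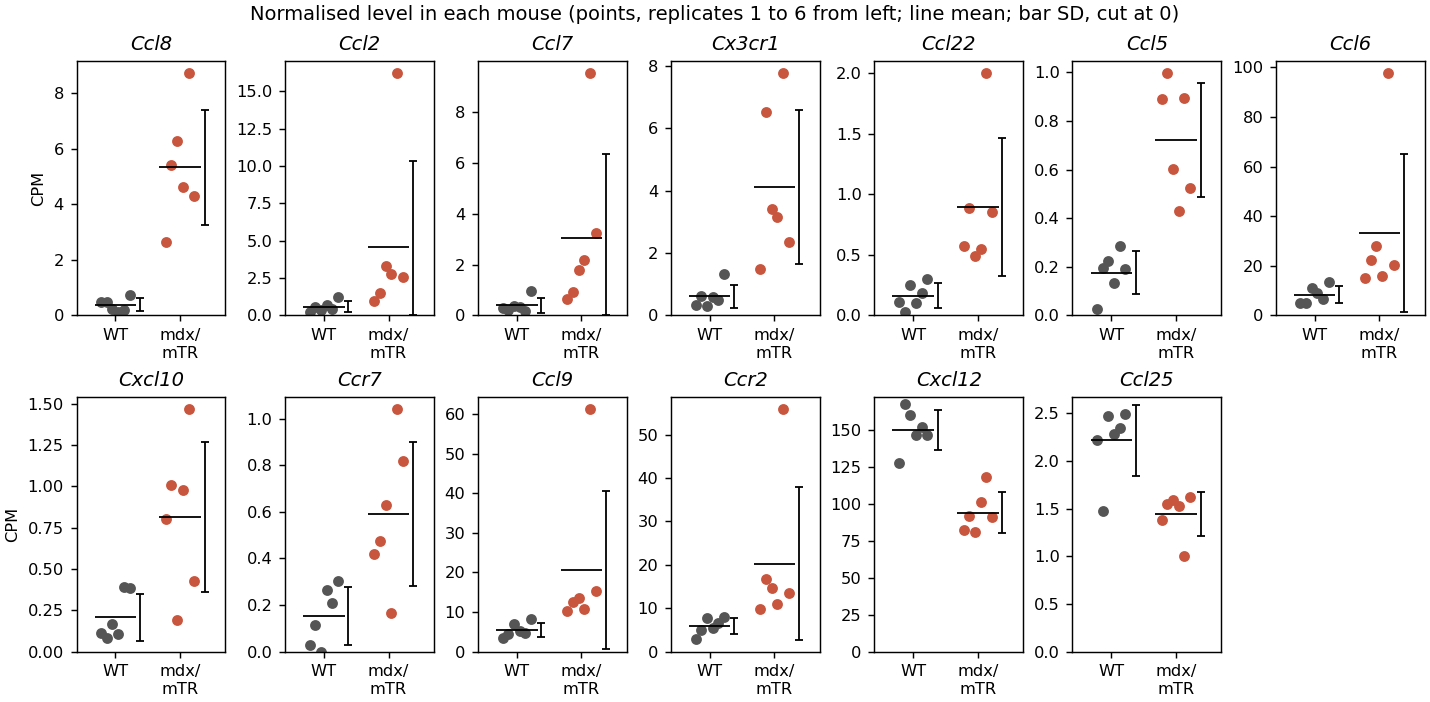
Normalised level (CPM, y axis from 0, scale differing by panel) in each of 6 WT and 6 mdx/mTR mice, shown as points with the mean as a line and the SD as a bar, for 11 of the largest rises and the 2 falls. A single mdx/mTR point, replicate 5, stands far above the rest for Ccl2, Ccl6, Ccl9 and Ccr2, while all mdx/mTR points of Cxcl12 (80.7 to 118 CPM) lie below all WT points (128 to 168 CPM).

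Of the 6 tested CXC ligands, 3 were higher and 1 lower, against 25.0% and 23.4% of all genes tested. Cxcl12, the ligand of CXCR4 that holds stem cells and leukocytes in their niches, lay between 128 and 168 CPM in WT (median 150). In mdx/mTR it lay between 80.7 and 118 CPM (median 91.7), below every WT library. It fell by 0.67 ± 0.09 on the log2 scale (edgeR adjusted p 5.88e-05), and with library totals alone its log2 fold change was -0.507. Summed markers of blood endothelial cells, a known source of Cxcl12, were 402 to 536 CPM in WT against 320 to 426 CPM in mdx/mTR. Of these 5 genes, 3 were lower, and Pecam1 and Cdh5 were not called (edgeR adjusted p 0.092 and 0.0642). Summed markers of fibro-adipogenic progenitors, the fibroblast-like cells of muscle, went the other way, with 164 to 283 CPM in WT against 294 to 462 CPM in mdx/mTR. The part of either cell type in the result was not tested.

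Its receptor Cxcr4 rose while the ligand fell, from between 2.86 and 5.39 CPM in WT (median 3.7) to between 6.79 and 12.5 CPM in mdx/mTR (median 9.37). The groups did not overlap (1.28 ± 0.18, edgeR adjusted p 9.29e-05). Replicate 2 was the highest mdx/mTR library. Ackr3, the atypical receptor that takes up Cxcl12, averaged 21.9 CPM in WT against 21.6 CPM in mdx/mTR and was not called (-0.03, edgeR adjusted p 0.883).

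Cxcl14, an abundant ligand of fibroblasts and epithelia, rose from 72.2 ± 15 to 102 ± 21.0 CPM with overlapping groups (0.50 ± 0.15, edgeR adjusted p 0.0161). Markers of fibro-adipogenic progenitors summed to 164 to 283 CPM in WT against 294 to 462 CPM in mdx/mTR, with 3 of 5 genes higher. The part of these cells in the Cxcl14 result was not tested. Per kilobase of exon, Cxcl14 had the highest level of all members (39.5 CPM per kb in WT and 55.8 in mdx/mTR), ahead of Cxcl12 (20.9 and 13.2) and Ccl11 (17.2 and 18.3) in WT. In mdx/mTR, Ccl6 (23.1) came next after Cxcl14 on that scale, and Ccl11 stood above Cxcl12. Together Cxcl12, Cxcl14 and Ccl11 held 84.3% of the summed CPM of all members in WT and 60.8% in mdx/mTR, a sum in which long transcripts weigh more.

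Cxcl16, a membrane-bound ligand of CXCR6 on macrophages, rose from 1.88 ± 0.582 to 5.71 ± 2.13 CPM without overlap (1.60 ± 0.25, edgeR adjusted p 0.000176). Exons of Zmynd15 on the other strand cover 20.5% of its exon bases, and reads of the pair cannot be told apart if strand was not used in counting. Cxcr6 rose too, from 0.223 ± 0.0971 to 0.493 ± 0.153 CPM (1.13 ± 0.31, edgeR adjusted p 0.00797).

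The interferon-induced ligands of CXCR3 are Cxcl9, Cxcl10 and Cxcl11, neighbours on chromosome 5. Cxcl10 lay between 0.0837 and 0.392 CPM in WT (median 0.139) and between 0.191 and 1.47 CPM in mdx/mTR (median 0.891). It rose, and 5 of 6 mdx/mTR libraries exceeded every WT library (1.96 ± 0.48, edgeR adjusted p 0.00428). Cxcl9 averaged 1.98 ± 1.07 CPM in WT against 2.24 ± 1.04 CPM in mdx/mTR and was not called (0.18, edgeR adjusted p 0.683). Cxcl11, annotated by GENCODE M21 as a polymorphic pseudogene, had 6 to 10 counts per WT library and 2 to 4 per mdx/mTR library. With no filter it was called lower (-1.95, edgeR adjusted p 0.000458), but 41.7% of its exon bases overlap Gm2673 on the other strand. The shared receptor Cxcr3 rose from 0.174 ± 0.143 to 0.512 ± 0.264 CPM (1.55 ± 0.47, edgeR adjusted p 0.0141).

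The ELR ligands Cxcl5, Cxcl3 and Cxcl2, which act through CXCR2, had few counts apart from mdx/mTR replicate 5. Cxcl5 had 0 or 1 count in each WT library, 1 to 6 counts in 5 mdx/mTR libraries and 214 counts in replicate 5. Cxcl3 had 0 to 2 counts in WT and 22 in replicate 5, with at most 1 in the other mdx/mTR libraries, and Cxcl2 had 0 to 5 counts in WT and 25 in replicate 5, with 2 to 8 in the others. Cxcr2, the receptor of these ligands on neutrophils, had 0 to 6 counts in WT, 67 in replicate 5 and 1 to 7 in the other mdx/mTR libraries. With no filter Cxcl5 was called higher (5.61, edgeR adjusted p 0.0161), with 214 of its 232 mdx/mTR counts in replicate 5. Cxcl1, the ELR ligand that passed the filter, averaged 0.7 ± 0.375 CPM in WT against 0.955 ± 0.486 CPM in mdx/mTR and was not called (0.44, edgeR adjusted p 0.352).

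Cx3cl1, the membrane-bound ligand of CX3CR1 on endothelium and neurons, rose from 3.06 ± 0.585 to 6.34 ± 1.96 CPM without overlap (1.05 ± 0.20, edgeR adjusted p 0.000684). Xcl1, made by NK and CD8 T cells, had 0 to 5 counts per WT library and 0 to 22 per mdx/mTR library and was not tested. Its receptor Xcr1, a marker of cross-presenting dendritic cells, rose from 0.41 ± 0.152 to 0.748 ± 0.199 CPM (0.86 ± 0.26, edgeR adjusted p 0.0155).

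Of 12 tested receptors, 9 rose and none fell, against 25.0% and 23.4% of all genes tested. Cx3cr1, the fractalkine receptor of patrolling monocytes and tissue macrophages, changed most: it lay between 0.305 and 1.34 CPM in WT (median 0.54) and between 1.48 and 7.78 CPM in mdx/mTR (median 3.28). The groups did not overlap (2.74 ± 0.44, edgeR adjusted p 0.000234). The highest WT library was replicate 6 and the lowest mdx/mTR library replicate 1.

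Ccr2, the receptor of Ccl2, Ccl7 and Ccl12 on inflammatory monocytes, lay between 2.78 and 8.02 CPM in WT (median 6.0) and between 9.78 and 56.0 CPM in mdx/mTR (median 14.2). The groups did not overlap (1.78 ± 0.42, edgeR adjusted p 0.00313), and the log2 fold change without replicate 5 was 1.16 (edgeR adjusted p 0.000893).

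Ccr2 and Cx3cr1 mark inflammatory and patrolling monocytes respectively, but Cx3cr1 is also a gene of tissue macrophages. A ratio of these genes in whole muscle is therefore not a measure of monocyte types. The log2 ratio of Ccr2 to Cx3cr1 counts, with a pseudocount of 0.5, was taken within each library. It averaged 3.34 ± 0.71 in WT (2.57 to 4.59) and 2.23 ± 0.58 in mdx/mTR (1.36 to 2.85). The difference was -1.11 (two-sided exact permutation p 0.00866; 0.00216 is the smallest this design allows). Both receptors rose, and Cx3cr1 rose by more. The ratio in mdx/mTR replicate 5, 2.85, was the highest of its group, and without that library the difference was -1.24 (exact permutation p 0.00866).

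Ccr7, which guides dendritic and T cells to lymph nodes, lay between 0.0 and 0.301 CPM in WT (median 0.16) and between 0.164 and 1.04 CPM in mdx/mTR (median 0.552). It rose with overlapping groups (1.92 ± 0.55, edgeR adjusted p 0.0106). Its ligand Ccl19 had 4 to 11 counts per WT library and 1 to 11 per mdx/mTR library, and Ccl21a, Ccl21b and Ccl21c had none. Ccl19, Ccl21a and Ccl21b share 59.1%, 71.6% and 100% of their 50-base stretches with near-identical copies, so a count near 0 may not reflect their level.

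The call for Ccr1, a receptor of Ccl6, Ccl9 and Ccl5, was not stable. It lay between 0.627 and 0.893 CPM in WT (median 0.717) and between 0.349 and 1.34 CPM in 5 mdx/mTR libraries, with 8.33 CPM in replicate 5. The log2 fold change was 1.59 ± 0.61 (edgeR adjusted p 0.0443), and 0.47 without that library (edgeR adjusted p 0.19). The call was also lost without any 1 of the 6 WT libraries (1.55 to 1.65, edgeR adjusted p 0.0597 to 0.0793). Ccr9 (0.48, edgeR adjusted p 0.238), Cxcr5 (-0.21, edgeR adjusted p 0.543) and Ccr10 (-0.22, edgeR adjusted p 0.548), receptors of the homeostatic ligands Ccl25, Cxcl13 and the pair Ccl27a and Ccl28, were not called.

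On chromosome 9, the receptor genes Ccr9, Cxcr6, Xcr1, Ccr1, Ccr1l1, Ccr3 and Ccr2 follow each other within 435 kb. Of these, 4 rose, Ccr9 was not called, and Ccr1l1 and Ccr3 did not pass the filter. Ccr3, the eosinophil receptor, had 0 to 4 counts per WT library and 2 to 16 per mdx/mTR library. The 4 eosinophil markers summed to 0.0261 to 0.194 CPM in WT against 0.143 to 0.355 CPM in mdx/mTR, with Epx at 0 in every library. Siglecf, which did not pass the filter, averaged 0.0139 CPM against 0.133 CPM. Their part in the Ccr3 counts was not tested.

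Of the 26 members that did not pass the filter, 6 had no count in any library: Ccl20, Ccl21a, Ccl21b, Ccl21c, Ccl27b and Cxcl15. The other 20 had a count. Besides those given above, Cxcl13 had 3 to 11 counts per WT library and 2 to 17 per mdx/mTR library, and Ccl1, Ccl26, Cxcl17, Ccr6, Ccr8, Ccr1l1 and Cxcr1 had at most 5 counts in any library. At these depths a difference in the latter 7 was not detectable.

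**Figure D4:**
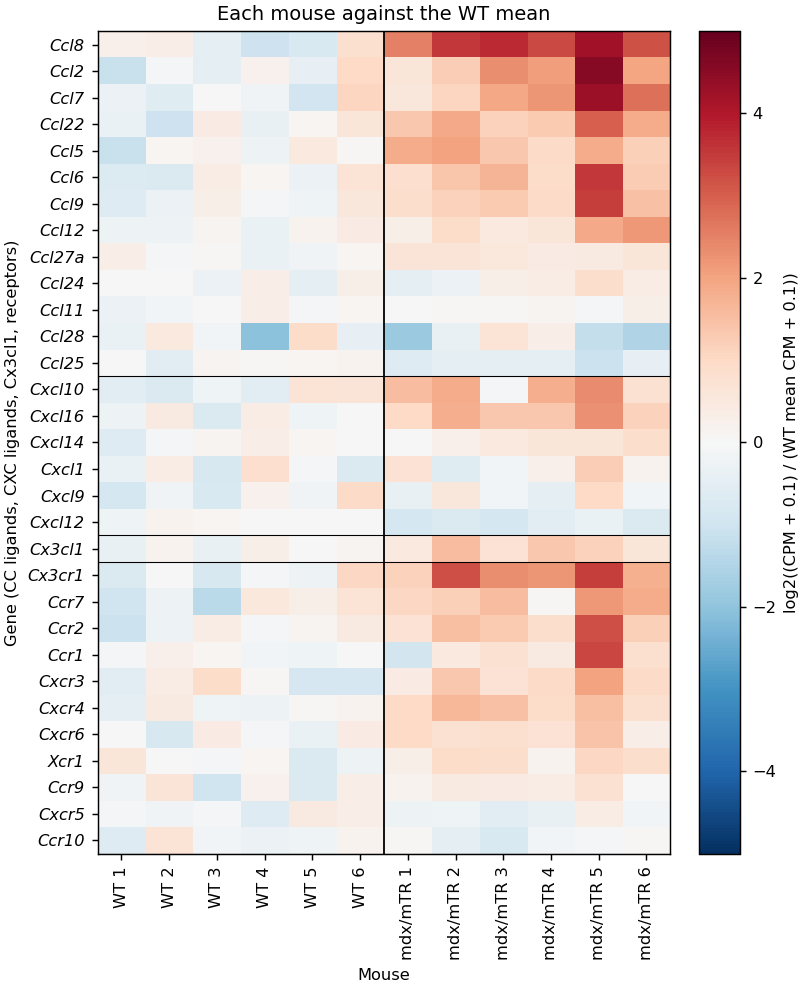
Each of the 12 mice (columns) against the WT mean, as log2 of the ratio of CPM with 0.1 added (colour, from -2.04 to 4.56), for 31 tested members (rows, by class). The mdx/mTR columns are red for most CC ligands and receptors, deepest in replicate 5, and pale in replicate 1.

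Of the 22 members that rose, replicate 5 had the highest mdx/mTR level in 16, replicate 2 in 4 (Cxcr4, Ccl5, Ccl27a and Cx3cl1) and replicate 6 in 2 (Ccl12 and Cxcl14). Replicate 1 was the lowest in 14. The median coefficient of variation of tested members was 41.5% in WT and 42.5% in mdx/mTR, against 9.7% and 11.7% for all tested genes. These values were not matched for level and include counting error. For the abundant Cxcl12, Ccl11 and Cxcl14 it was 9.12%, 15.2% and 20.7% in WT. Without replicate 5, 21 of the 32 members were higher and 2 lower, against 22.6% of all genes higher, and Ccr1 was the only call lost.

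Markers of several leukocyte types were higher in mdx/mTR as well. For the counts of genes below, 25.0% of all genes tested were called higher and 23.4% lower. Macrophage markers summed to 92.3 to 155 CPM in WT against 251 to 630 CPM in mdx/mTR, with 6 of 8 genes higher. The largest part of that sum was Lyz2, which averaged 48.2 CPM in WT against 207 CPM in mdx/mTR. Cd163 and Mertk were not called (edgeR adjusted p 0.61 and 0.121). Dendritic cell markers summed to 26.5 to 50.8 and 72.9 to 126 CPM (5 of 7 higher). Most of that sum was H2-Ab1, which averaged 28.9 CPM in WT against 76.4 CPM in mdx/mTR. Zbtb46 and Cd209a were not called (edgeR adjusted p 0.314 and 0.201). Monocyte markers summed to 56.6 to 70.4 and 73.8 to 100 CPM (3 of 3 tested, of 7). Most of the monocyte sum was Ace, which is not specific to monocytes and averaged 63.0 CPM in WT against 75.2 CPM in mdx/mTR (log2 fold change 0.25). T cell markers summed to 0.528 to 1.28 and 2.19 to 4.49 CPM, with Cd3d and Cd3g under the floor and 1 of 2 tested genes (of 7) higher: Cd4 rose from 0.231 to 1.68 CPM (edgeR adjusted p 4.24e-05), and Foxp3 was not called (edgeR adjusted p 0.215). NK cell markers summed to 0.111 to 0.739 and 1.23 to 3.05 CPM. Mast cell markers summed to 11.3 to 20.2 and 26.7 to 33.1 CPM, with 5 of 5 higher, and B cell markers to 0.361 to 2.04 and 0.628 to 1.58 CPM, with none higher. Lymphatic endothelial markers summed to 21.6 to 30.0 and 25.9 to 48.5 CPM (1 of 5 higher and 1 lower), and satellite cell markers to 35.8 to 45.4 and 32.6 to 51.9 CPM (2 of 5 higher and 1 lower). Their part in the rise of the members was not tested.

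Neutrophil markers summed to 0.695 to 2.17 CPM in WT, to 18.6 CPM in mdx/mTR replicate 5 and to at most 3.8 CPM in the other mdx/mTR libraries. Most of the sum in replicate 5 was Csf3r, at 12.7 CPM, and its groups did not overlap. Of the 3 tested genes, Csf3r and S100a8 were higher and S100a9 was not called (edgeR adjusted p 0.159). Ly6g had no entry, and Mpo and Elane, the granule genes of the list, were under the floor. The same library held the highest macrophage sum (630 CPM, of which Lyz2 342 CPM, next sum 451 CPM). It also held the high counts of Cxcl5, Cxcl3, Cxcl2 and Cxcr2, and the part of either cell type in these counts was not tested.

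**Figure D5:**
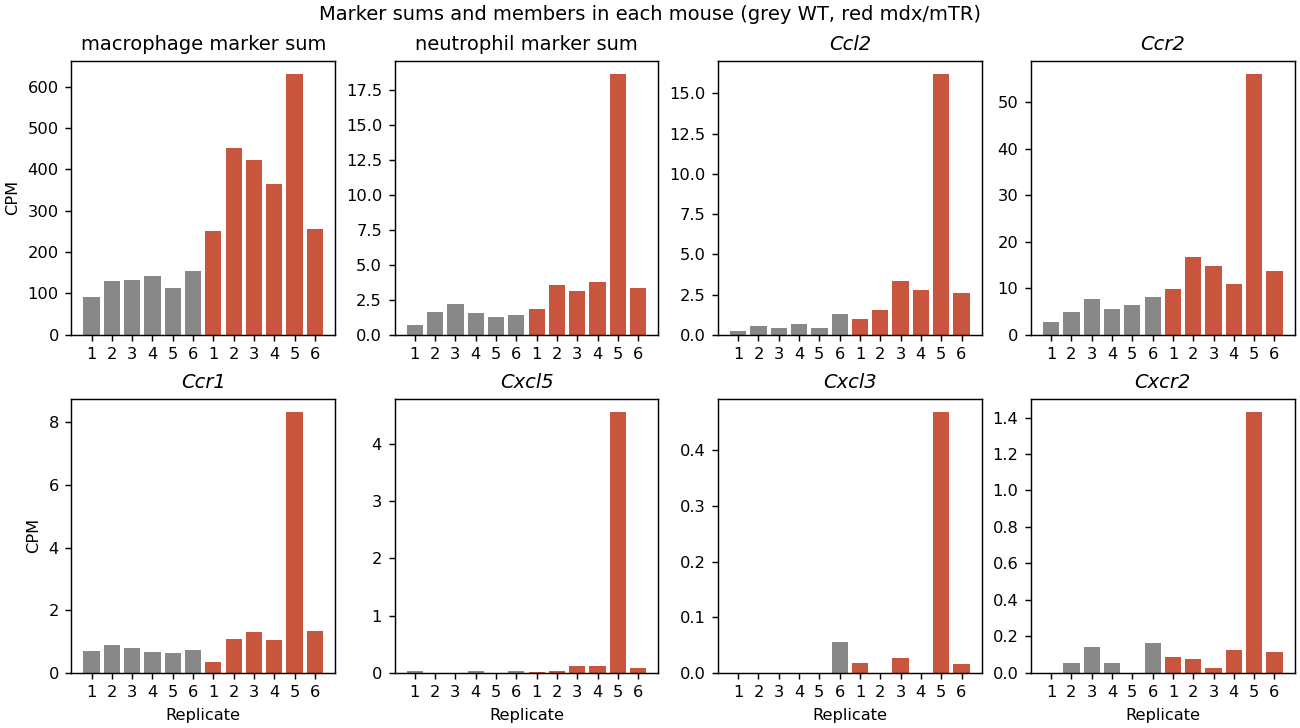
Summed macrophage and neutrophil markers and 6 members (CPM, y axis from 0) as bars for replicates 1 to 6 of WT (grey) and mdx/mTR (red). The bar of mdx/mTR replicate 5 is the tallest in each panel, at 16.2 CPM for Ccl2 and 8.33 CPM for Ccr1.

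Genes that act beside these ligands and receptors were examined as lists, to be set against 25.0% higher and 23.4% lower over all genes tested. Among 8 further chemokine and atypical receptor genes, 4 rose and none fell, with a median of 0.32. They were Pf4, the platelet chemokine (1.12, edgeR adjusted p 0.000667), Ackr1, which carries chemokines across venular endothelium (0.60, edgeR adjusted p 0.00446), Ppbp (0.91, edgeR adjusted p 0.0484) and Cklf (0.83, edgeR adjusted p 0.0343). Of 16 genes of signalling below the receptors, 15 rose and none fell, with a median of 1.44. Vav1, a signalling protein of blood cells, rose from 0.821 ± 0.259 to 4.16 ± 2.55 CPM (2.33, edgeR adjusted p 0.000115), and Rgs2, which ends G protein signals, rose by 1.46 (edgeR adjusted p 0.000108). Of the 6 tested of 8 other chemoattractant receptors, 4 rose and none fell (median 1.24), among them the complement receptor gene C3ar1 (2.54, edgeR adjusted p 0.00014) and the chemerin receptor gene Cmklr1 (0.71, edgeR adjusted p 0.000313).

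Of the 10 tested of 11 leukocyte adhesion genes, 9 rose and 1 fell (median 1.55), against 25.0% and 23.4% of all genes tested. Itgax, an integrin gene of dendritic cells and macrophages, rose by 2.47 (edgeR adjusted p 4.66e-05). Itga4, a subunit of the integrin that binds Vcam1, fell from 39.1 ± 1.89 to 9.98 ± 2.87 CPM (-1.97, edgeR adjusted p 3.66e-07) without overlap. Of the 6 tested of 7 proteases that trim or shed chemokines, 4 rose (median 0.19), led by Mmp2 (1.22, edgeR adjusted p 9.19e-06) and Mmp14 (1.39, edgeR adjusted p 3.77e-05). Of the 9 tested of 11 inducers of chemokine transcription, 3 rose (median 0.19), against 25.0% of all genes tested, including Nfkb2 (0.85, edgeR adjusted p 2.2e-05) and Nfkb1 (0.13, edgeR adjusted p 0.0155). The cytokine genes Tnf (1.23, edgeR adjusted p 0.0763) and Il1b (1.06, edgeR adjusted p 0.105) were not called.

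Promoters of 42 members were found in the RefSeq set for GRCm38.p6, and the 250 bases before each start were searched on both strands, overlapping matches included. Ccl2, Ccl7, Ccl5 and Cxcl5 were among the members with none. A member was counted if any of its promoters matched, while the share over all is per promoter. The kappaB motif, the site of NF-kappaB, matched in 8 of the 42 (19%) and in 3.9% of 32851 promoters. Of the 8, Ccl9 and Cxcl10 were called higher and Cxcl1 was not called. Ccl20, Ccr3, Ccr6, Cxcl2 and Cxcl3 were not tested. GAAANNGAA, a core of interferon-stimulated elements, matched in 8 of 42 (19%; among them Cxcl9, Cxcl10, Cxcl14 and Ccr2) and in 7.13% of all. TTCNNNGAA, a STAT site, matched in 4 of 42 and in 7.02% of all. Matches are descriptions of sequence, and a promoter without a match says only that these letters are not in the window. Pieces around the matches are shown for Cxcl10 and Ccl9, which rose, and for Cxcl1, Cxcl2 and Cxcl3, of which Cxcl1 was not called and the others were not tested, with matched letters in capitals. They lie at chr5:92348968-92349117 on the minus strand, chr11:83578647-83578686 on the minus strand, and chr5:90891159-90891199, chr5:90903787-90903827 and chr5:90786013-90786053 on the plus strand, in that order.
Cxcl10: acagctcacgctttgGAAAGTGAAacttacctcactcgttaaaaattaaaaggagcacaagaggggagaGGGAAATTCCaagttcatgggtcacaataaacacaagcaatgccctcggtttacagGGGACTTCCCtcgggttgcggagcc
Ccl9: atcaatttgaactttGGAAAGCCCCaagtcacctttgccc
Cxcl1: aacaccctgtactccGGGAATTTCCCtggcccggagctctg
Cxcl2: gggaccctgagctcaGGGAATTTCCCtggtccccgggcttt
Cxcl3: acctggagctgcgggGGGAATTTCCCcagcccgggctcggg
The same 11 letters stand in capitals in Cxcl1, Cxcl2 and Cxcl3, where overlapping matches were found, and Cxcl10 holds both kinds of motif.

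In the authors' deposited table, 21 members are called higher and 2 lower of 31 with an adjusted p, against 25.4% of 14028 genes higher. Of these, 22 were also called here. Ccl3 is called only in the authors' deposited table, where its log2 fold change is 1.55, and Ccl9 and Ccr1, called here, have no adjusted p there. For Ccl8 the authors' deposited table gives 3.14 and for Ccl2 it gives 1.55, both smaller than the values fitted here. DESeq2 run here gave 3.81 and 2.94, so the deposited fold changes may not be the same kind of estimate.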

How the data were processed

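RNA was sequenced from the tibialis anterior of 12 mice, 6 per group, with groups and replicate numbers taken from the labels. Reads were aligned to mm10 with STAR after FastQC, per the submitters' processing notes; the counter, annotation, strand handling and versions are not given in the sources used here. The authors deposited whole-number counts per gene symbol, 1 column per mouse, and 0 columns were left unmatched. Of the 24421 entries, 5131 had no count. The authors also deposited the output of their DESeq2 test, with a mean normalised signal, a log2 fold change, a standard error and a test score, and a p-value raw and adjusted, per the file headers.

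Counts were tested with edgeR 4.0.16 in R 4.3.3 (filterByExpr with a minimum count of 10, or 0.25 CPM, in 6 libraries; TMM; glmQLFit and glmQLFTest with group as the only term) over 13937 genes, with Benjamini-Hochberg adjustment over all of them and a threshold of 0.05. A standard error is the log2 fold change divided by the square root of F. The Ccr2 ratio was compared by an exact permutation test over mice. Floors of 3 counts are the 95% limit for a count of 0 and cover counting error only, since reads were not counted by molecular identifiers.

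On simulated counts for the 13937 genes of mdx/mTR against WT, with 200 changed, edgeR recovered 71.6%, 85.1% and 95.5% of genes changed 1.5-fold, 2-fold and 4-fold, with 10 false calls among 178. The 200 were drawn at random, and the data gave far more calls (3479 higher and 3257 lower). Tested members also had a higher median coefficient of variation than all genes (in WT 41.5% against 9.7%), a value that was not matched for level and includes counting error. These rates therefore do not give the recovery for members. Replicate pairs of a group had a chi-square per degree of freedom of 8.87 to 116, and none was treated as a duplicate library. Same-numbered mice had correlations of deviations from -0.155 to 0.354, with 2 of 6 above 0.1, so the numbers were not taken to pair the mice.

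Gene positions, exon lengths, overlaps and shared 50-base stretches came from GENCODE M21, which held 57 of the 58 members (not Ccl21c), and promoters from RefSeq. The members, the pathway and marker lists and the tests were chosen with earlier results of these data known. All counts include 1 member whose own values are not reported here. Every other tested member is named, and the others are listed with their counts; values over all mice are given for members among the 12 largest absolute changes past the threshold and the falls; each pathway list names its 2 smallest p-values; any other gene or value was chosen after it was seen. Alternatives were other filters and scalings, DESeq2 1.42.0, limma-voom (limma 3.58.1), a replicate block, stricter thresholds, another pseudocount and each mouse left out in turn. Python 3.11.15 with pandas 2.3.3, numpy 2.4.6, scipy 1.17.1 and matplotlib 3.10.9 was used for tables, permutation tests and figures.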

Additional observations from a re-analysis of the deposited data

Results flagged for a closer look

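For each tested value, the 6 mice of a group were checked for a single library standing apart, by the distance from the extreme library to its neighbour as a share of the whole range (Dixon's 95% critical value). Such a library was found in 15 of 90 checks, where about 1 in 20, or 4.5, arises by chance. They are not independent, since 9 of the 15 belong to mdx/mTR replicate 5, 3 to WT replicate 6, 2 to WT replicate 2 and 1 to mdx/mTR replicate 6.

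Replicate 5 of mdx/mTR held most of these values. Ccl2 stood at 16.2 CPM against 0.959 to 3.31 in the other mdx/mTR libraries, and Ccl7 at 9.52 CPM against 0.628 to 3.24. Ccl9 stood at 61.2 CPM against 10.3 to 15.3, with the largest ratio (0.901), and Ccl6 at 97.7 CPM against 14.9 to 27.8. Ccr2 stood at 56.0 CPM against 9.78 to 16.8, and Ccr1 at 8.33 CPM against 0.349 to 1.34. The same library was highest for Ccl22 (2.0 CPM against 0.492 to 0.89), Cxcr5 (0.533 CPM against 0.246 to 0.344) and the signalling gene Vav1 (9.18 CPM against 2.06 to 3.93).

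In WT, replicate 6 was highest for Ccl7 (0.957 CPM against 0.157 to 0.389), Cx3cr1 (1.34 CPM against 0.305 to 0.614) and Pf4 (6.76 CPM against 3.78 to 4.59). WT replicate 2 was lowest for Ccl25 (1.48 CPM against 2.22 to 2.49) and highest for Rgs2 (6.7 CPM against 3.64 to 4.43). Ackr1 was highest in mdx/mTR replicate 6, at 4.84 CPM against 2.69 to 3.27.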

How the results depend on the processing

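Among the fits with another filter, scaling, test or block and those without 1 mouse, up to 20 per member, 23 of the 24 called members kept their call and direction in every fit that gave them an adjusted p; DESeq2 gave none for Ccl9. Ccr1 lost its call, with 0.799 in limma-voom (adjusted p 0.314), and of the 8 members not called only Ccl11 was called, with library totals alone. The sign changed for Ccr10 (0.0186 without WT replicate 2; -0.337 to 0.0186 over the fits without 1 mouse) and Cxcl9 (-0.0636 without mdx/mTR replicate 5; -0.0636 to 0.497). Higher members numbered 12 with at least 1 CPM in at least 6 libraries, which tests fewer genes and called 3126 higher over all genes. At a minimum log2 fold change of 0.5, 14 members were higher and 0 lower. That test called 1012 genes higher and 356 lower over all genes, since it asks for a larger effect. At an adjusted p of 0.01, 17 members were higher, with 2375 higher over all genes. Scaling by library totals gave 5596 higher and 1560 lower genes, and 23 higher members. Leaving out 1 mouse gave 21 to 22 members higher, 3163 to 3562 genes higher and 2950 to 3254 lower, and a Ccr2 ratio difference of -1.27 to -0.861.

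The groups share replicate numbers, which do not pair the mice. With the number as a block, 21 members were higher and 2 lower, with 3308 and 3112 over all genes; Ccr1 was the member that lost its call (0.945, edgeR adjusted p 0.141).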
